A study of Caenorhabditis elegans with 83 samples.

Results

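The genes described here encode the proteins of the small subunit of the cytosolic ribosome of Caenorhabditis elegans, rps-0 to rps-30. They were chosen by name: 31 sequence names were looked up in both RNA tables of the series, and all 31 were found in each, among 18607 genes listed in either table. The series used auxin-inducible degradation, in which a protein that carries a degron tag is destroyed once auxin is added, in whole L2/L3 larvae. It compared the genome binding of cohesin and its loader, chromosome contacts and RNA between worms with and without a cohesin subunit or the cohesin release factor.

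Depletion of the cohesin subunit SMC-3 was done in strain JK05 and depletion of the release factor WAPL-1 in strain JK06, and CA1200, which received auxin too, served as control. Auxin was given to all 3 strains for 1 h before chromatin immunoprecipitation (ChIP) and for 4 h before RNA extraction, after 24 h of growth at 22 °C. A concentration of 1 mM was recorded for the RNA libraries of all 3 strains. For ChIP in these strains it was recorded only for some of the JK06 libraries. RNA was measured in 2 libraries per strain. Strain HW04, also grown for 24 h at 22 °C, was sampled with 1 mM auxin for 1 h and without auxin. There were 2 libraries per condition for each ChIP target in HW04. The labels do not say which protein, if any, carries a degron in it. Nor do they give the promoter that drives the auxin receptor or the number of independent lines. Each depletion strain was set against another strain, so strain background and depletion cannot be told apart.

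The small ribosomal subunit binds the messenger RNA, finds the start codon and decodes it, while the large subunit forms the peptide bonds. Its proteins are held around a ribosomal RNA in a head and a body, and the messenger passes between them, in at an entry channel and out at an exit site. Growing larvae make ribosomes in large numbers, and the ribosomal protein genes are among the most heavily transcribed genes of an animal cell. Cohesin is a ring-shaped complex, of which SMC-3 is a subunit, that is loaded onto chromatin with the help of PQN-85, the worm counterpart of the loader Scc2/NIPBL, and is released by WAPL-1.

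The lists of peaks held 6290 SMC-3 peaks in control, 361 in the SMC-3 depletion and 6107 in the WAPL-1 depletion, and 5385, 5018 and 6713 PQN-85 peaks. The RNA of the targeted genes gave no check of the labels, since the degron acts on the protein: in the authors' deposited tables smc-3 differed by -0.23 ± 0.26 (log2 fold change ± standard error) in the SMC-3 depletion and wapl-1 by 0.22 ± 0.41 in the WAPL-1 depletion. The number of SMC-3 peaks was far lower in the strain labelled for SMC-3 depletion than in either other strain. In the 4 SMC-3 lists of HW04 the names of the peaks state the opposite auxin condition to the labels. Read counts per library were not used here, so sequencing depth is unknown and no spread between libraries can be given beyond the deposited standard errors.

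All 31 genes were strongly expressed. In the authors' deposited table for the SMC-3 depletion their mean normalized counts lay between 10502 for rps-28 (Y41D4B.5) and 59159 for rps-0 (B0393.1), against a median of 143 over all genes. Of the 31 genes, 29 were among the 200 genes with the highest mean normalized count in that table, and 30 in the table for the WAPL-1 depletion. Together they held 5.23% and 5.71% of all normalized counts in the 2 tables. The fold change and mean in each table give the level in each strain, and the control levels computed from the 2 tables stood in a ratio of 1.138 to 1.140 for every gene, so that the 3 strains could be put on a single scale.

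Per kilobase of gene span, introns included, rps-8, rps-0 and rps-4 had the highest control levels. These levels were computed from the authors' deposited means and fold changes and put on the single scale. For rps-8 (F42C5.8), a protein of the body, they were 61640 normalized counts per kilobase in CA1200, 39452 in JK05 and 56349 in JK06. For rps-0, the homolog of the human laminin receptor precursor that sits near the messenger exit, the 3 levels were 59752, 40010 and 52691 per kilobase. The levels of rps-4 (Y43B11AR.4), another body protein, were 59629, 37041 and 51607 per kilobase. All 3 genes were lowest in JK05, with JK06 between JK05 and control.

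The lowest levels per kilobase belonged to rps-28, rps-29 and rps-30. Control, JK05 and JK06 levels were 18691, 12658 and 21951 per kilobase for rps-28, a head protein beside the messenger exit. They were 21086, 11750 and 22047 per kilobase for rps-29 (B0412.4), a zinc-binding head protein. They were 23026, 15021 and 22359 per kilobase for rps-30, which is made as a fusion to a ubiquitin-like protein and then cut free. For rps-28 and rps-29 the JK06 level lay above control. The genes spanned 499 to 1518 bases, the shortest being rps-21 and the longest rps-3, and the order of levels per kilobase of coding sequence may differ, since exon lengths were not used here.

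**Figure D1:**
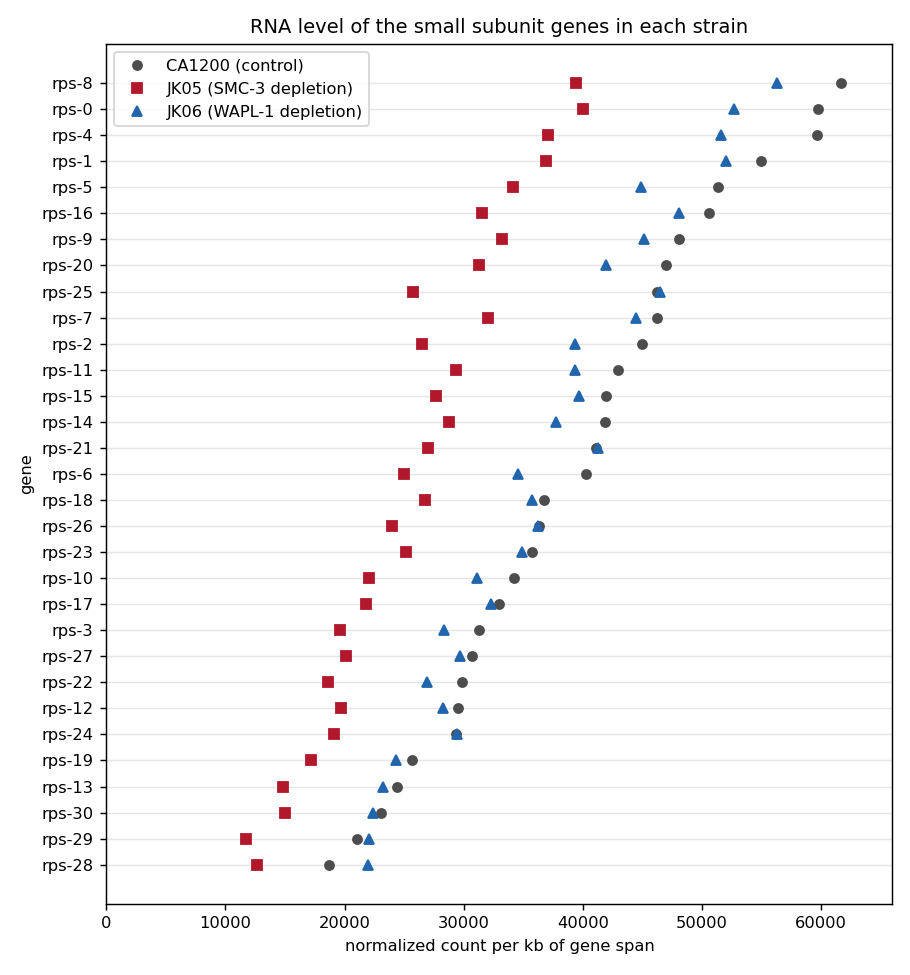
RNA level of each small subunit gene, in normalized counts per kilobase of gene span (horizontal axis), in CA1200 (circles), JK05 (squares) and JK06 (triangles), with genes ordered by their control level. Each symbol is a strain's level computed from the authors' mean and fold change, without a spread; all 31 squares lie left of their circle.

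After SMC-3 depletion, all 31 small subunit genes were below control and none passed the threshold. In the authors' deposited table their log2 fold changes ran from -0.84 to -0.45 with a median of -0.60, which is a level of 0.658 times control, and the standard errors were 0.25 to 0.33. None of the 31 had an adjusted p (DESeq2) under 0.05, and the lowest adjusted p was 0.119. Over all genes with an adjusted p, 0.686% were called in either direction 0.464% as lower and 0.222% as higher. At an unadjusted p under 0.05, 21 of the 31 genes were lower and 0 higher, against 3.66% lower and 2.17% higher among all genes.

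Strongly expressed genes as a whole were lower too. Highly expressed genes were those with 10000 or more mean normalized counts in the table, a threshold chosen after seeing the data. There were 281 of them, all 31 small subunit genes included, so their shares and median are not those of other genes alone. Of the 281, 85.1% were below control and 34.2% were lower at an unadjusted p under 0.05. Among all genes 50.7% were below control. The median log2 fold change of those 281 genes was -0.47, and relative to that median the small subunit genes lay at -0.13. In whole worms, fewer cells of a type that expresses these genes strongly and less of their RNA per cell cannot be told apart.

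Head proteins held both ends of the range. rps-25 (K02B2.5), needed in yeast and human cells for initiation at some viral internal entry sites, had levels of 26512 normalized counts in CA1200 and 14770 in JK05, and its log2 fold change in the authors' deposited table was -0.84 ± 0.26 with a DESeq2 adjusted p of 0.119. rps-29 had 16553 and 9224, and the authors' deposited table gave it -0.84 ± 0.27 with a DESeq2 adjusted p of 0.149. These were the largest differences among the 31 genes. At the other end stood rps-18 (Y57G11C.16), a head protein that touches the transfer RNA and the large subunit, with 28817 and 21034 and a log2 fold change of -0.45 ± 0.31 in the authors' deposited table. The median over the 13 head genes was -0.59, and 9 of them had an unadjusted p under 0.05.

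Other head genes lay close together. The authors' deposited table gave -0.60 ± 0.27 for rps-15, whose protein contacts the decoding site from the head, and -0.58 ± 0.29 for rps-19, the gene most often mutated in human Diamond-Blackfan anaemia. It gave -0.63 ± 0.27 for rps-10 and -0.59 ± 0.26 for rps-20, whose human counterparts are ubiquitinated when ribosomes collide. For rps-3, which lines the messenger entry, and rps-5, on the exit side, the authors' deposited table gave -0.67 ± 0.28 and -0.59 ± 0.30. The remaining head genes, rps-12, rps-16, rps-17 and rps-28, lay between -0.68 and -0.56 in the authors' deposited table.

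The body genes had a median of -0.61, and 12 of the 18 had an unadjusted p under 0.05. The lowest was rps-2 (C49H3.11), a protein of the messenger entry channel, with 47330 normalized counts in CA1200 and 27908 in JK05, and -0.76 ± 0.25 with a DESeq2 adjusted p of 0.184 in the authors' deposited table. rps-13, on the side that faces the large subunit, had 22256 and 13543, and the authors' deposited table gave -0.72 ± 0.29 with a DESeq2 adjusted p of 0.404. rps-6 (Y71A12B.1), the target of S6 kinase, was at -0.69 ± 0.27 in the authors' deposited table. These differences exceeded 2 standard errors and did not pass the adjustment over all genes.

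The body genes nearest to control were rps-23, rps-7 and rps-9. rps-23, the protein at the decoding centre, had 40553 normalized counts in CA1200 and 28561 in JK05, and -0.51 ± 0.30 with a DESeq2 adjusted p of 0.915 in the authors' deposited table. rps-7 (ZC434.2) had 40569 and 28107, and -0.53 ± 0.30 in the authors' deposited table. rps-9, which bears on decoding accuracy in yeast, had 48188 and 33275, and -0.53 ± 0.27 in the authors' deposited table. The 31 log2 fold changes ran from -0.84 to -0.45, with standard errors of 0.25 to 0.33. Every gene lay within its own standard error of the median of the 31, -0.60. Differences between the genes were not tested. Across the 31 genes, which share the same 4 libraries, Spearman's rho between log2 fold change and gene span was 0.13, and 0.21 between log2 fold change and mean count.

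**Figure D2:**
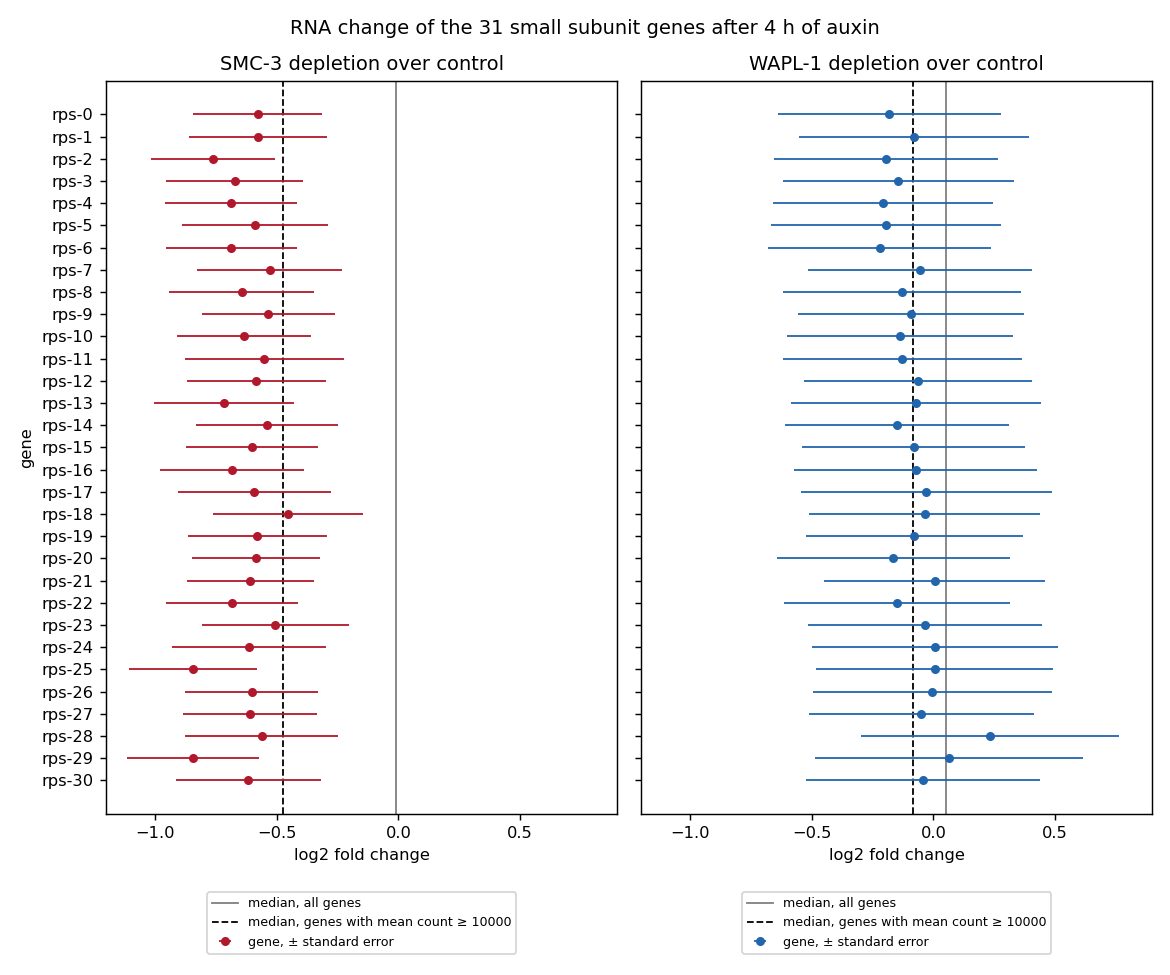
log2 fold change (horizontal axis) of each small subunit gene over CA1200 in the authors' deposited tables, for SMC-3 depletion (left) and WAPL-1 depletion (right), with bars of ± 1 standard error of the DESeq2 fit. The solid line is the median of all genes and the dashed line that of highly expressed genes (10000 or more mean normalized counts); on the left all 31 points lie between -0.84 and -0.45, and on the right between -0.22 and 0.23.

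After WAPL-1 depletion the small subunit genes lay near control. In the authors' deposited table their log2 fold changes ran from -0.22 to 0.23 with a median of -0.08, and standard errors of 0.45 to 0.55 were larger than any of the differences. No gene of the table had an adjusted p (DESeq2) under 0.05, a called share of 0%. At an unadjusted p under 0.05, 0 of the 31 genes were called, against 69 of all genes (0.377%) as lower and 4 (0.0218%) as higher. Of the 335 highly expressed genes in that table, 0.299% were lower at that p. The 95% intervals of the 31 genes reached from -1.12 to 1.27, so a difference as large as the median in the SMC-3 depletion was within reach of every gene's interval.

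Of the 31 genes, 26 were below control, against 44.2% of all genes and 69.3% of highly expressed genes. The lowest were rps-6, rps-4, rps-2 and rps-5, at -0.22 ± 0.46, -0.21 ± 0.45, -0.19 ± 0.46 and -0.19 ± 0.47 in the authors' deposited table. The highest were rps-28, rps-29, rps-25 and rps-24, at 0.23 ± 0.53, 0.06 ± 0.55, 0.01 ± 0.49 and 0.01 ± 0.50 in the authors' deposited table. The longer and more abundant members stood lower: Spearman's rho across the 31 genes was -0.74 with gene span and -0.74 with mean count, from genes that share the same 4 libraries. The 15 genes with a span under the median of the list had a median log2 fold change of -0.04, and the other 16 a median of -0.15. The control libraries were the same as in the SMC-3 comparison.

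Other parts of the translation machinery were read from the same tables. The 49 large subunit ribosomal protein genes had 0 called genes in either depletion, medians of -0.62 and -0.10 for SMC-3 and WAPL-1 depletion, and 35 with an unadjusted p under 0.05 in the SMC-3 depletion, all lower. In the authors' deposited tables rack-1, a scaffold protein on the head, was at -0.66 ± 0.26 and -0.25 ± 0.47, and rps-27A, whose product is a ubiquitin fusion, at -0.61 ± 0.30 and -0.07 ± 0.48. The 35 translation factor genes had medians of -0.16 and 0.03 and the 24 ribosome biogenesis genes medians of -0.20 and 0.08, with 0 called in each. The 27 genes of the mitochondrial small subunit had medians of -0.27 and 0.01 with 0 called. In the SMC-3 depletion the cytosolic ribosomal protein lists thus had lower medians than the factor, biogenesis and mitochondrial lists, a description without a test.

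Markers of several tissues also lay below control in the SMC-3 depletion. Of 15 germline markers 14 were below control, with a median of -0.51 and 0 called, and their summed level was 6876 normalized counts in CA1200 and 4691 in JK05. Of 12 intestine markers 10 were below control with a median of -0.48, and the summed levels were 165189 and 112973. The proteases cpr-1 and cpr-5 passed the threshold among them, at -0.95 ± 0.25 and -1.23 ± 0.34, with DESeq2 adjusted p of 0.0287 and 0.0496 in the authors' deposited table. All 10 muscle markers were below control, with a median of -0.45 and summed levels of 479691 and 349722.

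Neuron and epidermis markers did not lie below control as groups, with 4 of 11 below in each list and medians of 0.08 and 0.05. The neuron marker unc-119 was called, at 2.46 ± 0.32 with a DESeq2 adjusted p of 1.11e-10 in the authors' deposited table. Summed neuron marker levels were 41662 and 38948, and summed epidermis marker levels were 38138 in CA1200 and 41321 in JK05. No marker was listed at 0. In the WAPL-1 depletion 10 of 11 epidermis markers were below control with a median of -0.44, the summed level being 43539 in CA1200 and 33387 in JK06, and 0 called. The part of these tissue markers in the ribosomal protein values was not tested.

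In control worms most small subunit gene starts had both an SMC-3 and a PQN-85 peak. An SMC-3 peak overlapped the 500 bases on either side of the start in 27 of the 31 genes. The share was 17.9% of all genes and 68.8% of highly expressed genes, here the 279, the 31 included, that met that threshold in both tables. A PQN-85 peak overlapped that window in 26 of the 31, against 14.5% and 61.6%. In 25 genes both were present, against 11.6% and 55.2%. Of the large subunit genes, 41 of 49 had an SMC-3 peak and 37 a PQN-85 peak. The genes of the mitochondrial small subunit, whose proteins work in another ribosome, had SMC-3 peaks at 10 and PQN-85 peaks at 6 of 27 starts.

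Most peak summits lay upstream of the start. The median summit of the 27 control SMC-3 peaks was 244 bases upstream of the start, and 25 of the 27 summits were upstream, against 85.2% over all genes with a peak at the start. For the 26 control PQN-85 peaks the median was 235 bases upstream, and 24 summits were upstream, against 87.9%. Over all genes with a peak at the start the medians were 189 and 200 bases upstream. Among highly expressed genes the median summits were at -245.5 and -242 bases from the start, close to those of the small subunit genes. Peaks at small subunit starts had a median width of 517 bases for SMC-3 and 519 for PQN-85, and 13 peaks of each target reached over the start base itself, covering 38.7% of the gene span in the SMC-3 peak of rps-28.

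SMC-3 and PQN-85 summits fell at the same place. In the 25 genes with both, the PQN-85 summit lay within 50 bases of the SMC-3 summit in 24, with a median offset of 1 base. The exception was rps-18, with summits 488 and 592 bases upstream. Each gene also kept its own position across lists: over 16 lists of SMC-3 and PQN-85, the averaged PQN-85 list left out, the 29 genes with a peak in at least 5 lists had a median standard deviation of the summit of 14.9 bases within a gene. Between genes the standard deviation of the median summit was 153 bases. The lists of a target come from libraries that partly overlap, since combined sets hold libraries that also have lists of their own.

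**Figure D3:**
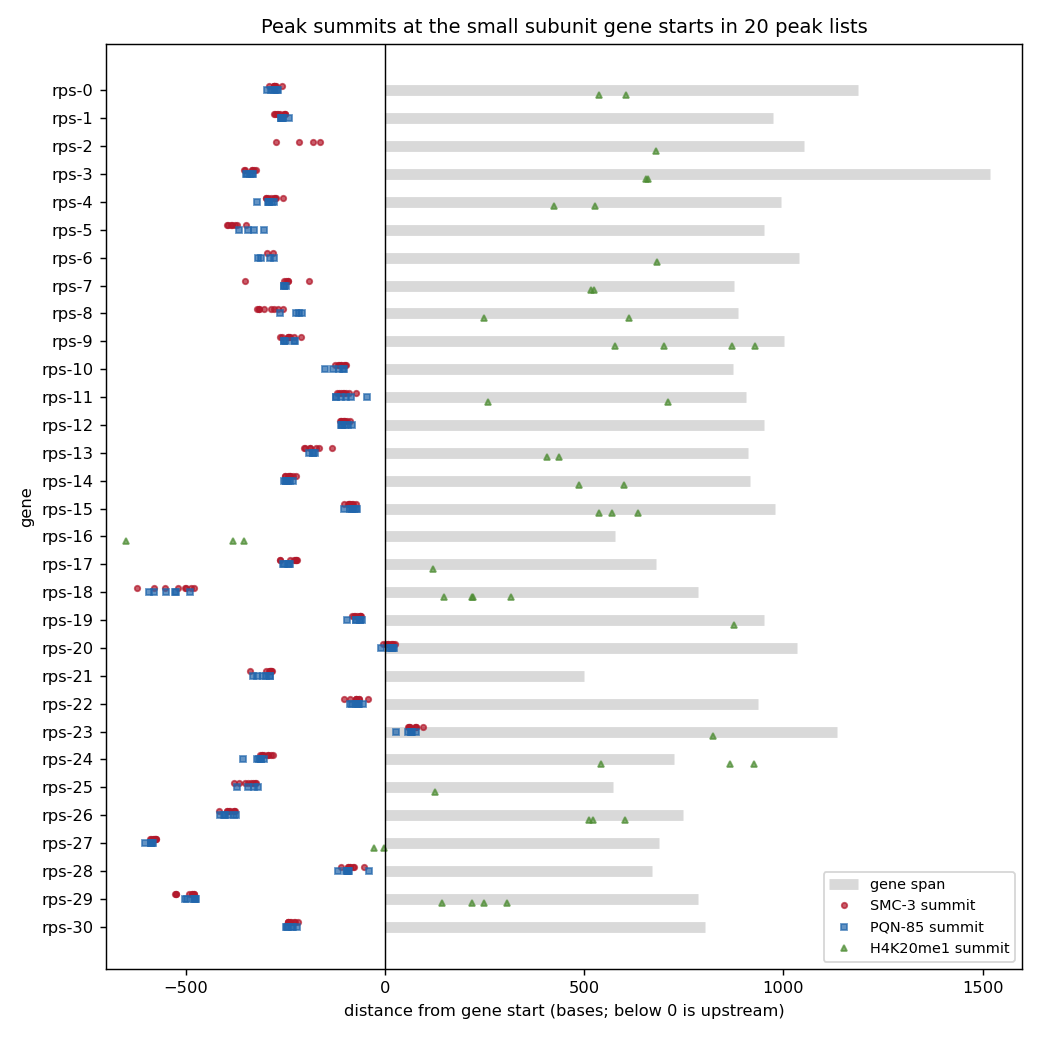
Distance of each peak summit from the gene start in bases (horizontal axis, below 0 is upstream) for SMC-3 (circles), PQN-85 (squares) and H4K20me1 (triangles) in 20 peak lists, with the gene span as a grey bar. The SMC-3 and PQN-85 symbols of a gene stack at a single place, upstream of the start in all genes but rps-20 and rps-23, and rps-16 has none.

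The strongest control SMC-3 peaks stood before rps-28 and rps-12. The rps-28 peak had a score of 1121, which is 10 times its −log10 q, a fold enrichment over input of 3.86 and a rank within the top 2.34% of the list. It lay on chromosome IV from 1658630 to 1659599 in build ce10, with its summit 92 bases upstream of the start. The rps-12 (F54E7.2) peak, at chromosome III from 5678806 to 5679433 in ce10, had a score of 1012, a fold enrichment of 3.92 and a rank of 3.47%, with its summit 111 bases upstream. rps-12 is a protein of the beak of the head, and its start lies 205 bases from that of ska-3 on the opposite strand. These scores are the authors' and rank peaks within a list only.

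Further control SMC-3 peaks in the top 10% of the list belonged to rps-26 and rps-4, with fold enrichments of 3.55 and 3.46 and ranks of 7.35% and 8.62%. rps-26 contacts the messenger before the start codon. The weakest were at rps-3 and rps-10, with fold enrichments of 2.25 and 2.201 and ranks of 50.5% and 48.5%. In all, 4 of the 27 peaks were in the top 10% and 26 in the top 50% of the control SMC-3 list, and the median rank was 17.8%. The gene with the highest score, rps-28, had the lowest control RNA level per kilobase of the 31, while rps-4 was among the highest in both.

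For PQN-85 in control the highest scores were at rps-19, rps-1 and rps-20. The peak of rps-19 had a score of 1300, a fold enrichment of 4.92 and a rank of 3.56%, with its summit 74 bases upstream. The peak of rps-1, a large body protein at the messenger exit, had a score of 1113, a fold enrichment of 4.41 and a rank of 5.68%, with its summit 242 bases upstream. The peak of rps-20 had a score of 1111, a fold enrichment of 4.55 and a rank of 5.71%, and its summit was 10 bases inside the gene. Of the 26 peaks, 10 were in the top 10% of their list. The weakest was at rps-8, with a fold enrichment of 2.19 and a rank of 72.6%, although rps-8 had the highest RNA level per kilobase.

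Distances from the start varied between genes. The summits farthest upstream in control SMC-3 were those of rps-27, a zinc-binding protein of the platform, at 575 bases, and of rps-18 and rps-29 at 488 and 486 bases. Summits inside the gene were found at rps-23, 76 bases after the start, and at rps-20, 7 bases after it. Both of these genes have a divergent neighbour whose start is close: dpm-3 at 194 bases from rps-23 and ekl-4 at 151 bases from rps-20. A divergent start also lies 205 to 253 bases from those of rps-12, rps-10, rps-22 and rps-19. The control SMC-3 summits of these last genes were 66 to 118 bases upstream, not inside the gene. Of the 31 genes, 11 had another gene start within 500 bases, among them rps-10 with rpl-24 at 214 bases and rps-30 with rpl-39 at 489 bases, so a peak there stands at both starts.

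4 genes had no SMC-3 peak at the start in control: rps-2, rps-6, rps-7 and rps-16. rps-16 (T01C3.6), whose tail reaches the transfer RNA in the peptidyl site, had no peak in any of the 17 SMC-3 and PQN-85 lists. In the authors' deposited table it lies on chromosome V from 15000000 to 15000577 on the minus strand, in a build the table does not name, and fib-1, which encodes the nucleolar methyltransferase fibrillarin, ends 56 bases upstream of it on the same strand. The start of fib-1, 1601 bases from that of rps-16, had a control SMC-3 peak with its summit 131 bases upstream, a score of 723 and a fold enrichment of 3.49. The nearest control PQN-85 peak was 14761 bases from the fib-1 start. In the authors' deposited tables fib-1 was at -0.73 ± 0.28 and rps-16 at -0.68 ± 0.30 after SMC-3 depletion, and at -0.15 ± 0.42 and -0.07 ± 0.50 after WAPL-1 depletion.

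The other 3 genes had peaks in some lists. rps-6 had a control PQN-85 peak, with its summit 280 bases upstream and a fold enrichment of 2.75, and an SMC-3 peak in 2 of the 9 SMC-3 lists. rps-7 had neither in control, and an SMC-3 peak in 6 of the 9 lists. rps-2 had an SMC-3 peak in 4 of the 9 lists and a PQN-85 peak in 0 of the 8 lists. rps-5 and rps-27 had an SMC-3 but no PQN-85 peak in control, against 6.25% of all genes and 13.6% of highly expressed genes.

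SMC-3 depletion left 1 of the 31 starts with an SMC-3 peak. It was that of rps-12, whose peak had a fold enrichment of 2.27, a score of 180 and a summit 106 bases upstream. Over all genes 0.752% of starts had a peak in that set, and 3.94% of starts of highly expressed genes. Of 27 starts with a control peak 26 thus had none. The same held for 3193 of 3325 such starts over all genes and for 181 of 192 of highly expressed genes. The authors combined replicate libraries into a single set per condition, so these counts have no replicate error.

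PQN-85 peaks were found at most starts in the strain depleted of SMC-3. A PQN-85 peak was present at 27 of the 31 starts, against 13.9% of all genes and 64.2% of highly expressed genes. rps-8 and rps-25 had a control peak and none in the depletion, a pattern of 3.13% of all genes and 6.09% of highly expressed genes. rps-5, rps-7 and rps-27 had the reverse, against 2.57% and 8.6%. In 26 of the 31 genes the start had a PQN-85 peak without an SMC-3 peak in this strain, against 13.2% of all genes and 60.2% of highly expressed genes. In control only rps-6 had a PQN-85 peak without an SMC-3 peak, against 2.84% and 6.45%. The highest score was 1273 and the highest fold enrichment 5.21.

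WAPL-1 depletion gave SMC-3 peaks at 29 of the 31 starts, against 20.9% of all genes and 63.8% of highly expressed genes. All 27 genes with a control peak were among them, with rps-2 and rps-7 added. Peaks in both sets were found at 15% of all starts and 60.2% of those of highly expressed genes. The peak of rps-2 lay 182 bases upstream with a fold enrichment of 2.23, and that of rps-7 lay 245 bases upstream with a fold enrichment of 2.21. The lists of the single libraries 3 and 4 of this group each held 29 starts as well, against 25% and 20.8% of all genes. PQN-85 peaks were present at 29 starts, against 17% of all genes and 73.1% of those highly expressed, and 24 genes had a PQN-85 peak in all 3 strains, against 10.5% of all genes and 54.1% of highly expressed genes.

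**Figure D4:**
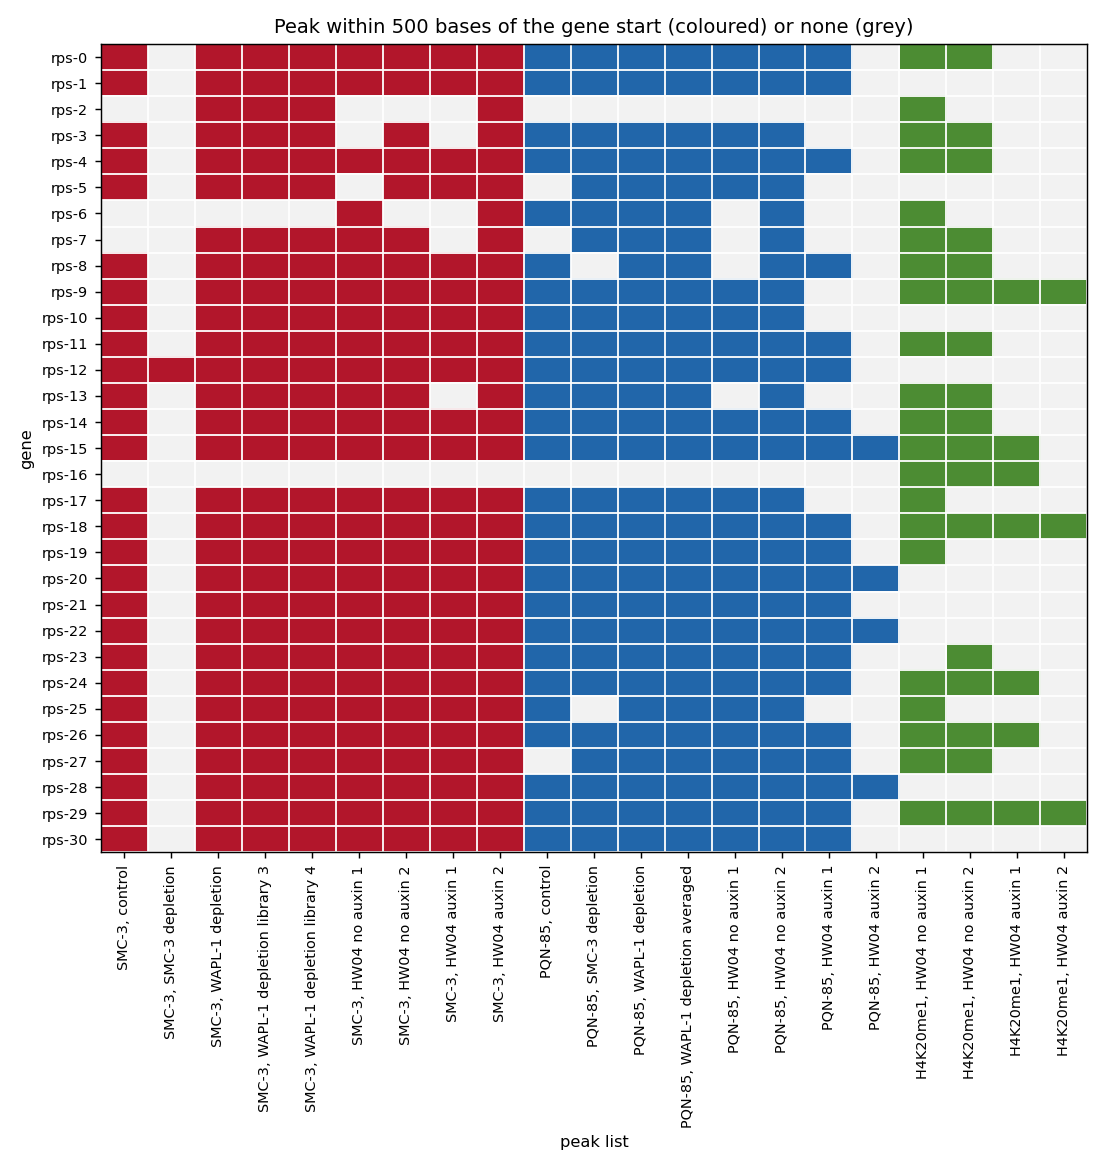
Presence (coloured) or absence (grey) of a peak within 500 bases of the start of each small subunit gene (rows) in each of 21 peak lists (columns), for SMC-3 (red), PQN-85 (blue) and H4K20me1 (green). The SMC-3 column of the SMC-3 depletion is empty but for rps-12, and the row of rps-16 is empty for SMC-3 and PQN-85.

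The starts of rps-15, rps-20, rps-22 and rps-28 had a peak in all 16 SMC-3 and PQN-85 lists other than the SMC-3 list of the SMC-3 depletion, against 0.849% of all genes and 10% of highly expressed genes, of whose starts 28 of 279 had this pattern. The list called on averaged PQN-85 libraries is among the 16 and holds all 6713 peaks of the combined set of the WAPL-1 depletion, so these 2 lists are not independent, and the averaged list had a peak at 25.8% of all starts. rps-15, rps-20 and rps-28 are head proteins and rps-22 a body protein.

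With all peaks counted, similar numbers of small subunit starts in strain HW04 had an SMC-3 peak with and without auxin. The lists without auxin had peaks at 27 and 28 of the 31 starts against 13% and 12.6% of all genes. Those with auxin had peaks at 25 and 30 starts, against 18.9% and 21.5% of all genes. The shares of highly expressed genes were 57.7% and 55.2% without auxin and 69.5% and 72.4% with it. The mean numbers of small subunit starts were 27.5 ± 0.707 and 27.5 ± 3.54 (SD, n = 2), and the two-sided exact permutation test gave p = 1. The smallest p that 2 against 2 libraries allow is 0.33. Taking the conditions from the peak names instead exchanges the groups, which can only turn the sign of a difference, here 0 with all peaks counted. The lists differed in size, with 4305 and 4091 peaks without auxin and 7457 and 8196 with it. With the 4091 highest-scoring peaks of every list the counts were 27 and 28 without auxin and 25 and 26 with it. That difference of -2 starts had p = 0.33 in the two-sided exact permutation test, the smallest possible.

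In HW04 both auxin libraries had PQN-85 peaks at fewer starts than either library without auxin. Without auxin 25 and 29 of the 31 starts had a peak, against 15.2% and 26.7% of all genes, and with auxin 20 and 4, against 9.37% and 2.02%. All 4 of the starts left in the second auxin library, rps-15, rps-20, rps-22 and rps-28, also had a peak in the first. The means were 27 ± 2.83 without and 12 ± 11.3 with auxin (SD, n = 2), and the two-sided exact permutation test of the difference of -15 starts gave p = 0.33, the smallest possible. The auxin libraries lay far apart from each other. The second auxin list held 1296 peaks in all, and with the 1296 highest-scoring peaks of every list the counts were 16 and 14 without auxin and 7 and 4 with it.

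**Figure D5:**
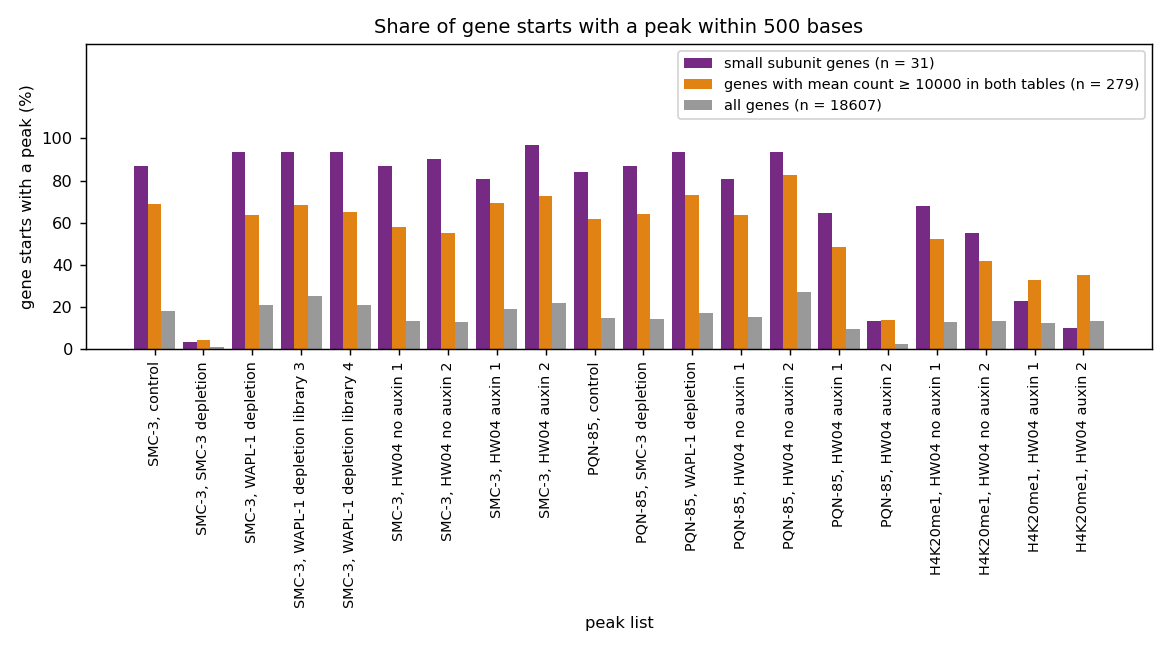
Share of gene starts, in percent, with a peak within 500 bases, in each of 20 lists, for the 31 small subunit genes, for the 279 highly expressed genes (10000 or more mean normalized counts in both tables) and for all 18607 genes. The SMC-3 and PQN-85 bars of the small subunit genes stand above those of the highly expressed genes in every list but the SMC-3 depletion SMC-3 list and the second HW04 auxin PQN-85 list.

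RNA differences of genes with and without a cohesin peak at the start overlapped. In the SMC-3 depletion the 27 genes with a control SMC-3 peak had a median log2 fold change of -0.60, from -0.84 to -0.45, and the 4 without a median of -0.68, from -0.76 to -0.53. In the WAPL-1 depletion the medians were -0.08 and -0.13. The gene sets share their libraries, and the difference between them was not tested. Over all genes the medians in the SMC-3 depletion were -0.03 with and 0.00 without a control SMC-3 peak.

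The genes are spread over the autosomes. Chromosome IV held 10, chromosome III 9, chromosome I 8, chromosome V 3, chromosome II 1 and the X chromosome 0, although 14.2% of all genes in the tables are on the X. The closest pair, rps-14 and rps-21 on chromosome III, have starts 10032 bases apart. Of the 31 genes, 8 overlap another gene of the tables, 6 of them on the opposite strand: rps-1, rps-14, rps-16, rps-18, rps-19 and rps-26. The labels describe a library protocol with no step that marks strand, so reads of such a pair cannot be told apart, and these values are uncertain to that extent.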

How the data were processed

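RNA was measured in 6 poly(A)-selected libraries of whole larvae, and peaks were read from 21 lists. Per the file headers, each deposited RNA table gives for every gene the authors' DESeq2 mean normalized count (a signal over both strains), log2 fold change of depletion strain over CA1200, standard error, Wald statistic (a score), raw p-value and adjusted p-value. Libraries were aligned and counted with HISAT2 2.2.1 and HTSeq 0.13.5 and fitted with DESeq2 1.30.0, per the submitters' processing notes. These name Bowtie2 2.4.2, MACS2 2.1.1 and MACS3 for ChIP; which of these made which list, and the setting for strand, are not given in the sources used here. In the deposited lists the authors give each peak a score (10 times −log10 q, as a whole number), a fold enrichment (ratio), −log10 q and a summit.

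Genes were called at the authors' adjusted p under 0.05 over all genes. No count per library was used, so nothing was refitted. Strain levels were computed from the mean and the fold change, assuming equal weight of both strains. A gene start had a peak where the peak overlapped 500 bases on either side. Lists of HW04 were compared by a two-sided exact permutation test (scipy 1.17.1). Scores, folds and ranks were compared within a list only. The functions that match peaks to starts and adjust p-values were tested on simulated data.

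Build ce10 is stated for 38 of 83 samples and for no RNA table. Gene starts of the tables differed from those of WBcel235 (RefSeq) by medians of -5 to 102 bases along the chromosomes, so WBcel235 gave names only, and peaks were matched to genes as if both were in the same build. The combined SMC-3 and PQN-85 sets of JK06 are listed under samples of other groups, so their group was read from the library names in their peak names. RefSeq now names rps-0, rps-1, rps-22 and rps-30 rpsa-1, rps-3A, rps-15A and fau-1.

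The genes, lists and tests were chosen with earlier results of these data known. Named genes were the 4 lowest and 4 highest log2 fold changes per table, the 3 highest and 3 lowest levels per kilobase, members with control peaks, and called genes of the comparison lists. The plan set levels per coding kilobase, and gene span was used instead, as exon lengths were not used here. Of the large subunit list, all 52 RefSeq symbols beginning rpl- or rplp- were taken after the files were seen, and 49 were in the tables. Alternatives were other thresholds, centrings, peak windows and lists. Hi-C, SMC-1, GFP, 8WG16 and input data were not analysed here. P-values rest on replicate libraries, which the series text calls biological replicates.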

Additional observations from a re-analysis of the deposited data

Results flagged for a closer look

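H4K20me1, monomethylation of histone H4 at lysine 20, is a mark known in worms for its enrichment on the dosage-compensated X chromosomes, and its HW04 lists were used in no comparison of the report. A peak of it lay within 500 bases of the start in 21 and 17 of the 31 small subunit genes in the lists without auxin, and in 7 and 3 in the lists with auxin. The first 3 of these counts were flagged for being above 3, the limit that a count of 0 allows. That limit takes no account of how many starts carry such a peak among all genes, so passing it says nothing about these genes. No CA1200 list of the mark was among the files used here. All genes had such a peak at 12.8% and 13% of starts without auxin and at 12.1% and 13.3% with auxin. Of the 279 highly expressed genes, 52% and 41.9% had one without and 32.6% and 34.8% with auxin. The difference of -14 starts between conditions had p = 0.33 in a two-sided exact permutation test, the smallest that 2 against 2 libraries allow.

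Most summits lay after the start: the medians were 528, 525, 523 and 218 bases after the start in the 4 lists, against 506, 415, 259 and 306 for highly expressed genes. In both lists without auxin 16 genes had a peak, and rps-9, rps-18 and rps-29 had one in all 4 lists. Neither list without auxin had one at rps-1, rps-5, rps-10, rps-12, rps-20, rps-21, rps-22, rps-28 or rps-30. The shares of all genes and of highly expressed genes with these patterns across lists were not computed. Whether the small subunit genes differ in them is therefore not known. rps-16, which had no SMC-3 or PQN-85 peak, had an H4K20me1 peak in 3 lists with its summit upstream, where fib-1 lies. The median fold enrichment at these genes was 1.72 in the first list without auxin, against 1.63 over all peaks of that list. No test of a cause was made.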

How the results depend on the processing

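Of 64 alternative values, 57 stayed on the same side of their threshold or within the limit set for a change. In the SMC-3 depletion 21 small subunit genes were called with an unadjusted p under 0.05, against 0 with an adjusted p under 0.01, 0.05 or 0.1 and 0 with the adjustment recomputed over all rows or over mean counts of at least 10. The median log2 fold change in the SMC-3 depletion became -0.13 once the median of highly expressed genes was taken off, an alternative chosen after seeing the data, and lay between -0.63 and -0.55 under the other centrings and the weighted mean. In the WAPL-1 depletion the median, within a standard error of 0 throughout, went from -0.08 to 0.01 when the same median of highly expressed genes was taken off. Counting only peaks that cover the start base gave 13 and 15 SMC-3 starts in control and WAPL-1 depletion, and 13, 13 and 10 PQN-85 starts in control, SMC-3 and WAPL-1 depletion, since the peaks lie upstream. Without single replicates the HW04 difference ran from -2 to 2 starts for SMC-3 (up to 2.5 with the stricter peak filter) and from -25 to -5 for PQN-85, so the first PQN-85 pair held the smaller difference. With the replicate number as a block the differences stayed 0 (p = 1) and -15 (p = 0.5, exact), and the labels state no pairing by number. No paired analysis was possible for RNA because the tables hold no values per library. Depth is unknown, combined peak sets have no replicate error, and 2 libraries per strain limit the RNA comparisons.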
